A study of Homo sapiens with 4 samples.

Results

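The interferon-stimulated genes (ISGs) examined here are 45 genes that cells switch on in response to interferon. They were chosen by symbol from knowledge of the pathway, with earlier results of these data known. The counts below are therefore not an independent check of those results. All 45 were found by symbol among the 41507 genes of the deposited gene table. The study treated diffuse large B-cell lymphoma (DLBCL) cells with JQ1, a compound that releases BET proteins from acetylated histones, to look for signaling pathways that depend on these proteins. RNA of SU-DHL-5 and Toledo, both established DLBCL cell lines, was sequenced after treatment with JQ1 at 1 µM or with the vehicle, DMSO. The labels give 6 h of treatment, whereas the legend of the study gives a longer time, and the labels name no interferon among the treatments. Each of the 4 groups (SU-DHL-5 DMSO, SU-DHL-5 JQ1, Toledo DMSO and Toledo JQ1) held 1 sample with 2 libraries, and each line is a single established culture model.

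Interferons are secreted proteins that bind receptors on the cell surface and, through Janus kinases, activate STAT transcription factors. Type I and type III interferons act through a complex that contains STAT2 and IRF9 and binds the interferon-stimulated response element (ISRE) in the promoters of target genes, while type II interferon acts mainly through STAT dimers on the gamma-activated site (GAS). The products of these genes sense foreign nucleic acids, block the entry or replication of viruses, and feed back on the pathway, and many of them are also expressed at a basal level in B cells without added interferon.

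Expression was given as RPKM, the reads on a gene divided by its length and by the depth of the library. The 8 libraries held between 14617583 and 17679831 mapped reads, as recovered from the RPKM values, and 94.8% to 95.5% of these lay on genes. The 2 libraries of a sample were averaged and counted as 1 replicate, because the labels do not give them as separate samples. Their difference exceeded that of repeated sampling of 1 library, where chi-square averages 1 per gene, and this average was 6.95 for SU-DHL-5 DMSO, 1.99 for SU-DHL-5 JQ1, 15.3 for Toledo DMSO and 4.58 for Toledo JQ1. Among members of at least 0.5 RPKM, the median absolute log2 difference between the libraries of a sample ranged from 0.06 in SU-DHL-5 JQ1 to 0.25 in Toledo DMSO. With 1 sample per group, the differences below were not tested across samples.

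A gene was called higher or lower when the log2 ratio of mean RPKM (with 0.1 RPKM added to each mean) was at least 1 in size, which is 2-fold, and both libraries of one sample lay above both libraries of the other. Genes with a mean under 0.5 RPKM over the 4 libraries compared were not called. Adding 0.1 RPKM pulls the ratios of genes with few reads toward 0. Intervals are exact binomial (Clopper-Pearson) 95% intervals of the ratio of recovered reads on the log2 scale, and they cover counting error only.

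The promoters of the members were read first, because the ISRE is the element that most of these genes share. RefSeq promoters on GRCh38.p14, from 250 bases before to 50 bases after a start site, were found for 35 of the 45 members. The core of the ISRE was searched as GAAANNGAAA on both strands. It was present in the promoters of 24 of these 35 genes (68.6%), compared with 1195 of 27305 genes in the whole table (4.38%), and in 28 of 45 member promoters against 3.57% of all 35116 promoters. The core of the GAS, searched as TTCNNNGAA, which reads the same on both strands, was present for 10 of the 35 genes (28.6%) and for 9.38% of all genes. A match is a description of the sequence, not a binding site. The following stretches are shown because their genes behaved differently with JQ1, and capitals mark the matches to the ISRE core.
IFITM1 (chr11:313990-314019, plus strand): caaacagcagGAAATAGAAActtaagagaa
IFITM3 (chr11:320885-320913, minus strand): gGAAAAGGAAActgttgaGAAACCGAAAc
BST2 (chr19:17405738-17405767, minus strand): tttctggGAAACTGAAACTGAAAacctaat
PARP14 (chr3:122680800-122680829, plus strand): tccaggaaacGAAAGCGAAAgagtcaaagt
ISG15 (chr1:1013364-1013419, plus strand): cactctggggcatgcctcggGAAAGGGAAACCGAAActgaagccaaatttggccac
HERC5 (chr4:88456974-88457074, plus strand): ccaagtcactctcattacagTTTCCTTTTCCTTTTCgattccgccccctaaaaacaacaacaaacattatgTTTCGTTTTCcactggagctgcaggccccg

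All of these stretches lie before the RefSeq start site. With each genomic site counted once, the member promoters held 44 matches to the ISRE core, and 14 of the 24 genes had more than 1. IRF1, IRF9, STAT2, OAS1, IFI16, IFI35, DDX58, HERC6, SAMD9L, SP110 and XAF1 had a promoter in the table and no match in it. IRF7, IFITM2, MX2, USP18, TRIM22, DHX58, GBP2, IFIT2, OAS2 and OASL had no entry.

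**Figure D1:**
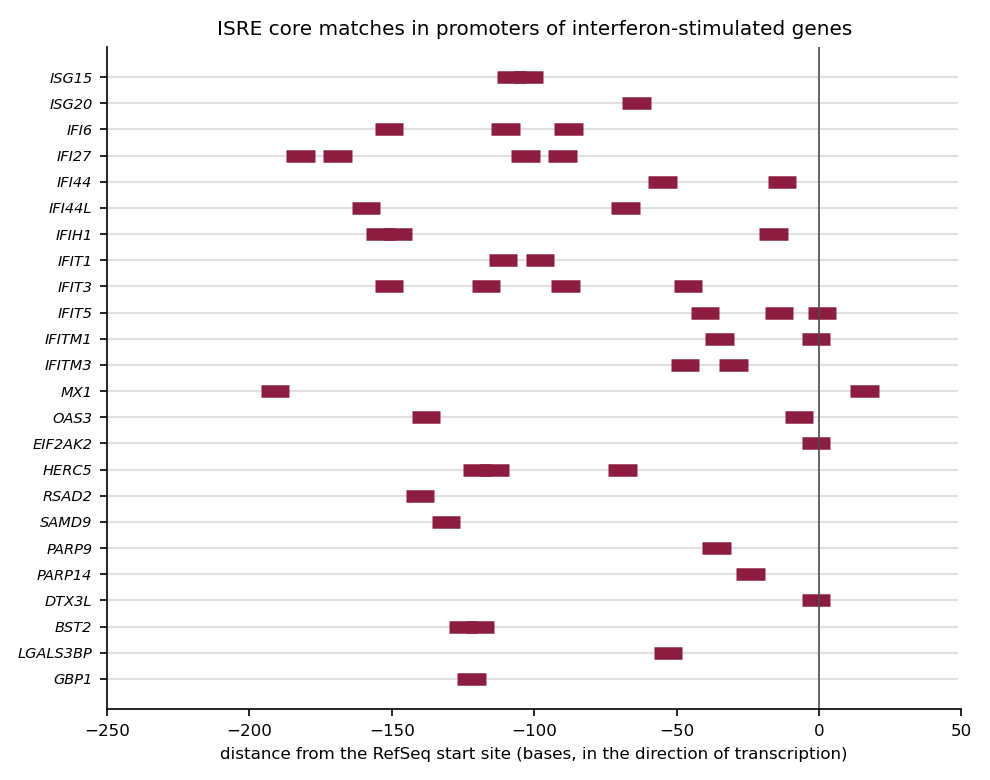
Positions of matches to the ISRE core (bars) in the promoters of the 24 members that held one. The horizontal axis is the distance in bases from the RefSeq start site, and genes with several promoters have their matches drawn on 1 line, each relative to its own start site. The bars number 47, of which 42 lie wholly before the start site, and 3 of them (in IFI27 and IFI44) repeat a genomic site shared by overlapping promoters.

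With JQ1, more ISGs fell than rose in each line, and IRF7 was the 1 member called higher. In SU-DHL-5, 34 of the 45 members passed the minimum level, and 16 of the 34 fell at least 2-fold (47.1%), compared with 6.39% of the 9738 genes tested. One member, IRF7, rose, compared with 1.84% of all genes. In Toledo, 26 members passed, 11 of them fell (42.3%, compared with 8.29% of 10124 genes), and IRF7 again was the 1 member that rose (compared with 1.95% of all genes). The members that passed are those with enough expression to be counted, not the whole list. Among those that fell in SU-DHL-5, IFITM1, IFITM2, OAS2, HERC6 and GBP2 had JQ1 means under 0.5 RPKM. They passed the minimum through DMSO, where they were higher, and so did OAS2 in Toledo. The same filter was applied to all genes. Because the libraries of a sample differed, the calls were also made from each library alone: 14 members fell in SU-DHL-5 with library 1 and 15 with library 2, and 11 fell in Toledo with either.

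Counting differences of any size, the JQ1 libraries lay below both of the DMSO libraries for 30 of the 34 members in SU-DHL-5 (38.4% of all genes) and above them for 3 (41.5% of all genes), namely IRF7, STAT2 and ISG15. In Toledo, both lay below for 18 of 26 members (43.5% of all genes) and above for 3 (29.1% of all genes), namely IRF7, STAT2 and IFI16. The median log2 ratio of the members that passed was −0.86 in SU-DHL-5, where the median of all genes tested was 0.01, and −0.56 in Toledo, where it was −0.07. The Toledo median was −0.66 with library 1 alone and −0.72 with library 2 alone. From summed transcripts, where 29 members passed, it was −0.86. With no minimum level, the medians were −0.84 over all 45 members in SU-DHL-5 and −0.50 over the 43 with reads in Toledo.

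Of the 22 members that passed in both lines, 7 fell in both, compared with 3.03% of the 9188 genes tested in both, and IRF7 rose in both, compared with 0.729%. The 7 were IFITM1, IFITM2, MX1, OAS2, PARP14, DTX3L and TRIM22. With a pseudocount of 1 RPKM, OAS2 and PARP14 were not called in either line, which left 5, compared with 1.81% of all genes. A further 2 members, DDX58 and IFIH1, fell in SU-DHL-5 and were not called in Toledo, and 2 others, BST2 and IFI35, fell in Toledo and were not called in SU-DHL-5. The difference between the lines was not tested for these genes, and the share of all genes called in 1 line only was not counted. Another 7 members (ISG20, IFI44, IFIT3, OASL, HERC6, USP18 and GBP2) fell in SU-DHL-5 and were under the minimum in Toledo, and 2 (IFITM3 and MX2) fell in Toledo and were under the minimum in SU-DHL-5. No member was called in opposite directions. Counting differences of any size among the 38 members that passed in either line, the libraries of 4 lay apart in opposite directions in the 2 lines, compared with 6.81% of 10674 genes.

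The ISRE core was found both among members that fell and among members that did not. In SU-DHL-5, 8 of the 10 members that fell and had a promoter in the table held the core, compared with 7 of the 15 that passed without falling. In Toledo, the core was present for 6 of 7 members that fell and 7 of 14 that passed without falling. Both kinds of genes are among the stretches printed above, where IFITM1 and BST2 fell in at least 1 line, ISG15 was not called in either, and HERC5 was not called in Toledo and was under the minimum in SU-DHL-5. The GAS core was present for 3 of 10 members that fell and 6 of 15 that passed without falling in SU-DHL-5. In Toledo, the GAS core was present for 5 of 7 and 3 of 14. These differences were not tested.

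**Figure D2:**
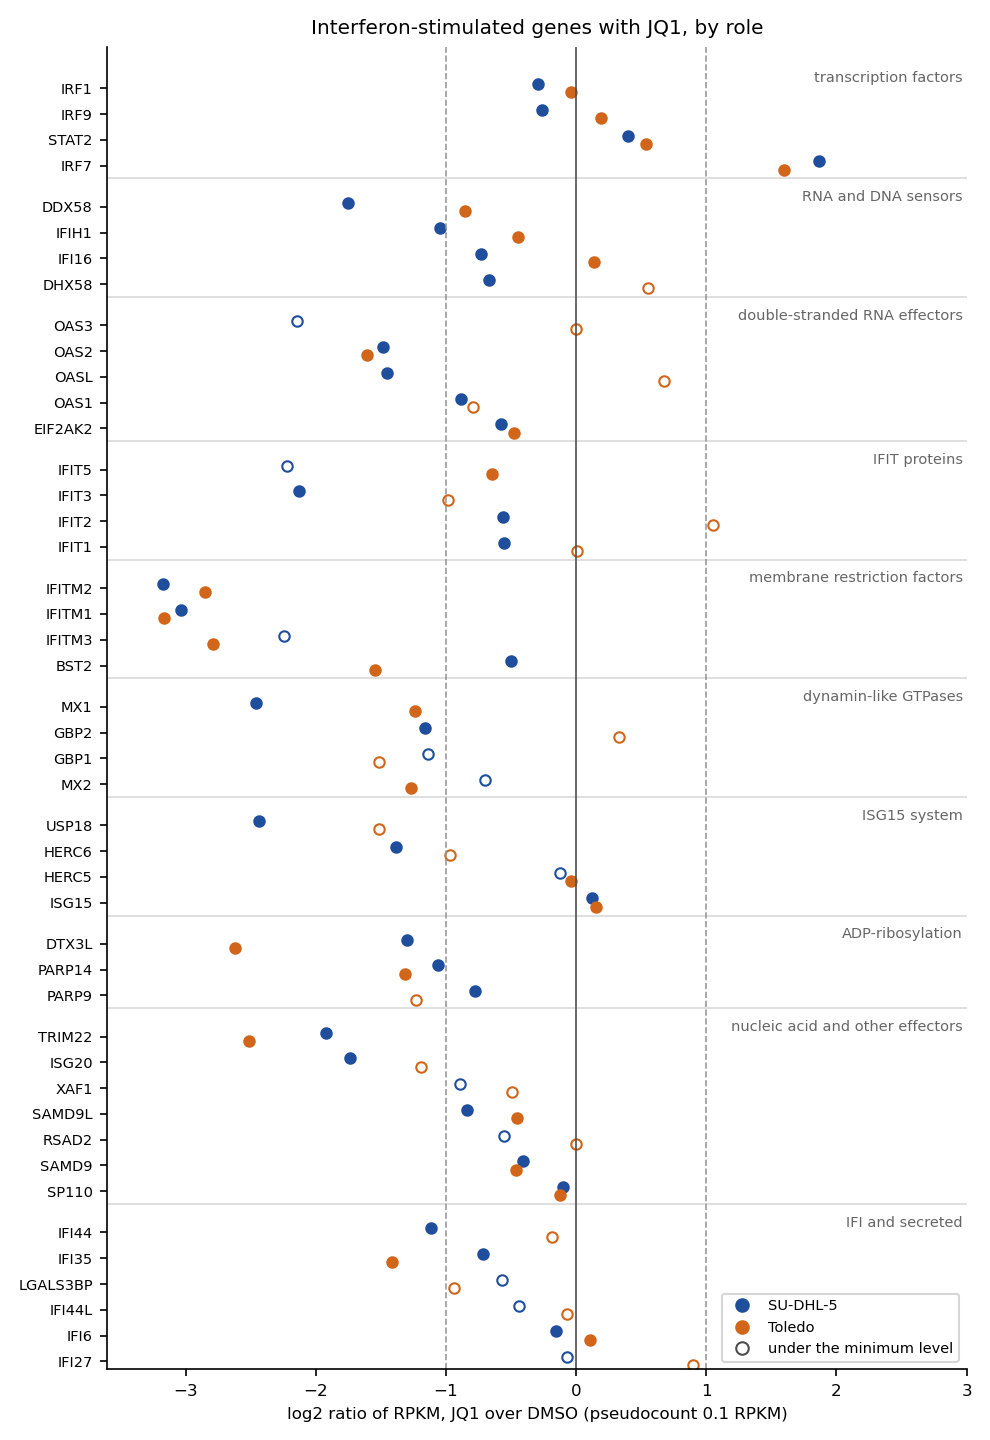
Log2 ratio of RPKM, JQ1 over DMSO (0.1 RPKM added), for all 45 ISGs in SU-DHL-5 (blue) and Toledo (orange), grouped by role. Dashed lines mark the 2-fold limits and open circles mark genes under the minimum level of 0.5 RPKM; IRF7 lies to the right of the upper limit in both lines, and IFITM1 and IFITM2 lie farthest to the left among the genes that passed.

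Of the transcription factors of the pathway, STAT2, IRF1, IRF7 and IRF9, only IRF7 was called. IRF7 (chr11:612555-615999), a factor that drives interferon genes once it is phosphorylated, was at 3.40 and 3.11 RPKM with DMSO and 12.0 and 12.3 RPKM with JQ1 in SU-DHL-5. In Toledo, it was at 12.5 and 11.7 RPKM with DMSO and 35.8 and 37.9 RPKM with JQ1. The gene rose in both lines with no overlap of libraries, with log2 ratios of 1.87 (interval from 1.69 to 2.12) and 1.60 (interval from 1.49 to 1.72). The transcript table lists 6 transcripts of IRF7, and the most abundant of them in every library had log2 ratios of 1.77 and 1.88.

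STAT2 (chr12:56341597-56360271), the partner of IRF9 in the complex on the ISRE, was at 8.32 and 8.25 RPKM with DMSO and 11.2 and 10.7 RPKM with JQ1 in SU-DHL-5, and at 10.6 and 13.0 RPKM with DMSO and 16.6 and 17.7 RPKM with JQ1 in Toledo. Its JQ1 libraries lay above its DMSO libraries in both lines, but the log2 ratios of 0.40 and 0.53 were under the 2-fold limit. IRF9, the DNA-binding subunit of that complex, was at 5.65 and 5.93 RPKM with DMSO and 4.48 and 5.14 RPKM with JQ1 in SU-DHL-5, and at 2.66 and 2.79 against 2.71 and 3.55 RPKM in Toledo. The log2 ratios of IRF9 were −0.26 and 0.19, and its libraries overlapped in Toledo, where the interval from −0.12 to 0.52 included 0. IRF1, which responds mainly to type II interferon, was at 9.21 and 8.95 against 7.13 and 7.64 RPKM in SU-DHL-5 and at 13.7 and 13.2 against 13.4 and 12.7 RPKM in Toledo. Thus the 3 factors other than IRF7 stayed within 2-fold, and no change of IRF1 was detectable in Toledo (log2 ratio of −0.04, interval from −0.14 to 0.06).

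The membrane restriction factors gave the lowest log2 ratios. IFITM1, IFITM2 and IFITM3 encode small membrane proteins that block the fusion of viruses with cell membranes. IFITM1 (chr11:313991-315272) was at 3.46 and 3.86 RPKM with DMSO and 0.338 and 0.382 RPKM with JQ1 in SU-DHL-5, and at 30.3 and 30.7 RPKM with DMSO and 3.26 and 3.37 RPKM with JQ1 in Toledo. It fell by a similar factor from different levels, with log2 ratios of −3.03 (86 and 8 reads with DMSO and JQ1, interval from −4.61 to −2.31) and −3.16 (742 and 77 reads, interval from −3.56 to −2.86). IFITM2 (chr11:308107-309410) was at 2.09 and 2.50 RPKM with DMSO and 0.332 and 0 RPKM with JQ1 in SU-DHL-5, over 55 and 4 reads. In Toledo, IFITM2 was at 113.7 and 105 RPKM with DMSO and 14.7 and 15.4 RPKM with JQ1. The log2 ratios of IFITM2 were −3.17 in SU-DHL-5, with a wide interval from −5.64 to −2.27, and −2.85 in Toledo, with an interval from −3.03 to −2.70. The SU-DHL-5 value was −2.34 with library 1 alone and −4.70 with library 2 alone, where JQ1 was at 0, so its size depends on the library.

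IFITM3 (chr11:319673-320914) was at 18.7 and 20.1 RPKM with DMSO and 2.30 and 3.15 RPKM with JQ1 in Toledo, where it fell with a log2 ratio of −2.79. In SU-DHL-5, it was under the minimum, at 0.572 and 0.176 RPKM with DMSO and at 0 with JQ1, which is at least 2.54-fold lower when the 0 is set to the floor of 3 reads over both libraries. The 3 genes are near neighbours of similar sequence, so the share of reads given to each is uncertain, and how reads that map to several genes were treated is not given in the sources used here. BST2 (tetherin), which holds budding virus particles on the cell, was the most abundant member of SU-DHL-5 with DMSO. It was at 117 and 108 RPKM with DMSO and 79.2 and 79.6 RPKM with JQ1 in SU-DHL-5, where its log2 ratio of −0.50 was not called, and it fell from 31.5 and 27.3 RPKM to 9.29 and 10.8 RPKM in Toledo, a log2 ratio of −1.54.

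**Figure D3:**
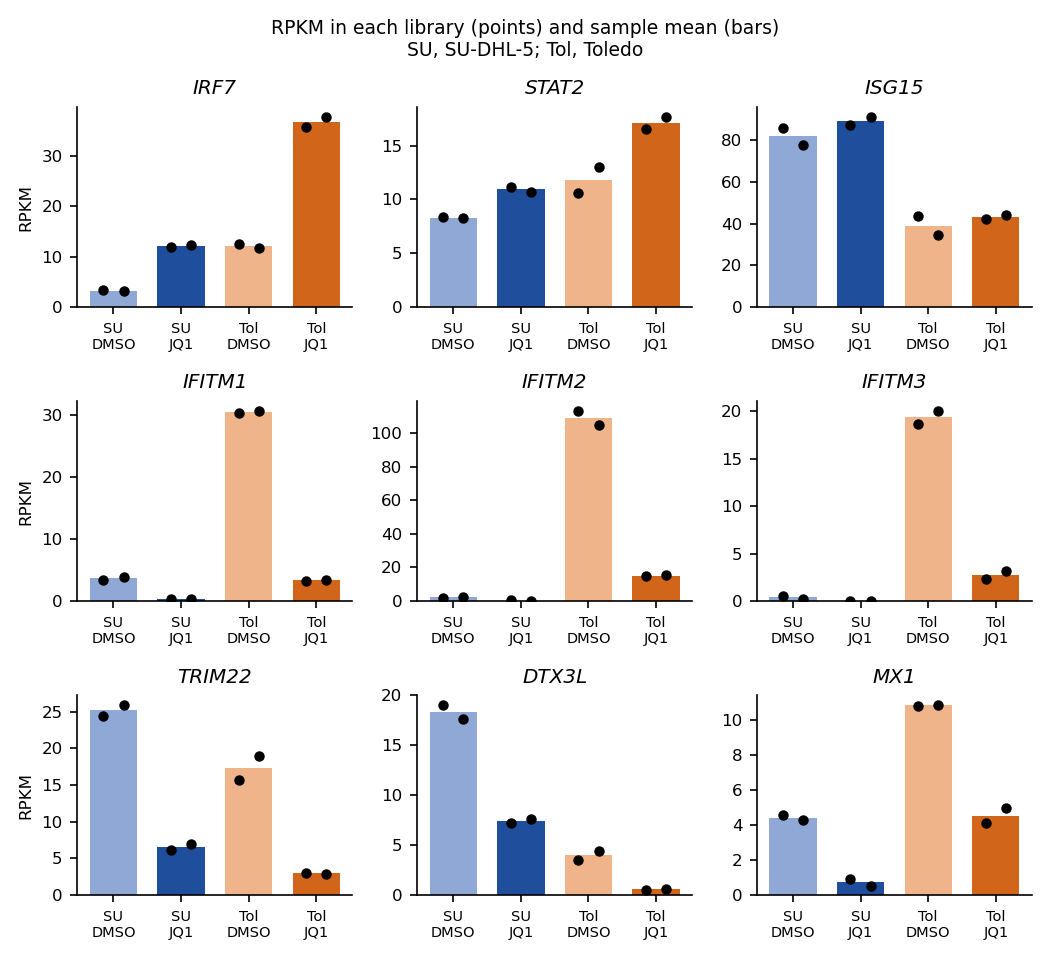
RPKM of 9 members in each library (points) and the sample mean (bars), with vertical axes that start at 0 and differ between panels. IRF7 is higher with JQ1 in both lines, the JQ1 libraries of IFITM1, IFITM2, TRIM22, DTX3L and MX1 lie below the DMSO libraries in both lines, and ISG15 libraries overlap in Toledo.

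Of the 4 sensors of nucleic acids, DDX58 and IFIH1 fell in SU-DHL-5, where 6.39% of all genes fell. None of the 3 that passed in Toledo was called (8.29% of all genes fell there), and the difference between the lines was not tested. DDX58 (RIG-I), a cytoplasmic sensor of short double-stranded and 5'-triphosphate RNA, was at 2.14 and 2.61 RPKM with DMSO and 0.624 and 0.647 RPKM with JQ1 in SU-DHL-5. In Toledo, DDX58 was at 1.13 and 1.48 RPKM with DMSO and 0.659 and 0.691 RPKM with JQ1. Both lines had JQ1 libraries below DMSO libraries, with a log2 ratio of −1.75 in SU-DHL-5 and of −0.86 in Toledo, the latter short of 2-fold. IFIH1 (MDA5), which senses long double-stranded RNA, was at 5.22 and 5.69 against 2.47 and 2.72 RPKM in SU-DHL-5 (log2 ratio of −1.04) and at 4.48 and 5.39 against 3.71 and 3.48 RPKM in Toledo (log2 ratio of −0.45). The fall of IFIH1 in SU-DHL-5 was the smallest called there, and its interval, from −1.28 to −0.88, included 2-fold. DHX58 (LGP2), a regulator of both sensors, had a log2 ratio of −0.67 in SU-DHL-5 and was under the minimum in Toledo.

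Among the effectors that act on double-stranded RNA, OAS2 fell in both lines. The OAS enzymes make the messenger that activates RNase L, and OAS2 was at 1.38 and 1.19 RPKM with DMSO and 0.295 and 0.499 RPKM with JQ1 in SU-DHL-5, and at 0.789 and 1.12 against 0.249 and 0.241 RPKM in Toledo. This gave OAS2 log2 ratios of −1.48 and −1.61. OASL, a relative without the enzyme activity, fell in SU-DHL-5 (log2 ratio of −1.45). OAS1 had a log2 ratio of −0.89 in SU-DHL-5, the nearest to the 2-fold limit among the members not called there, and OAS3 was under the minimum in both lines and at 0 in every Toledo library. The reads of OAS3 in SU-DHL-5 were 152 with DMSO and 17 with JQ1, a log2 ratio of reads of −3.09 (interval from −3.91 to −2.36). Its log2 ratio of RPKM with 0.1 RPKM added was −2.15. EIF2AK2 (PKR), the kinase that halts translation on double-stranded RNA, had log2 ratios of −0.58 and −0.47 with no overlap of libraries in either line.

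Among the IFIT genes, whose products bind viral RNA ends, IFIT3 fell in SU-DHL-5 from 3.62 and 3.70 RPKM to 0.812 and 0.713 RPKM, a log2 ratio of −2.13 (interval from −2.67 to −1.87). IFIT1 and IFIT2 had log2 ratios of −0.56 and −0.56 there and were not called. IFIT1, IFIT2 and IFIT3 were under the minimum in Toledo, where IFIT5 passed with a log2 ratio of −0.65. In SU-DHL-5, IFIT5 was under the minimum over the 4 libraries, with 98 reads with DMSO and 10 with JQ1. Its log2 ratio of reads was −3.22 (interval from −4.33 to −2.28), and that of RPKM with 0.1 RPKM added was −2.22. Of the dynamin-like GTPases, MX1, which traps viral nucleocapsids, was at 4.54 and 4.26 RPKM with DMSO and 0.897 and 0.540 RPKM with JQ1 in SU-DHL-5 (chr21:41420558-41459214), and it was called in both lines, with a log2 ratio of −1.24 in Toledo and of −2.46 in SU-DHL-5. Its neighbour MX2 fell in Toledo, with a log2 ratio of −1.27. In SU-DHL-5, MX2 was under the minimum with 9 reads with DMSO and 1 with JQ1, and the difference between the lines was not tested. GBP2 fell in SU-DHL-5 (log2 ratio of −1.16 over 115 and 41 reads), and GBP1 was under the minimum in both lines.

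Of the 4 genes of the ISG15 system, USP18 and HERC6 fell in SU-DHL-5, where 6.39% of all genes fell. ISG15 and HERC5, the 2 that passed in Toledo, were not called there, where 8.29% of all genes fell. ISG15 (chr1:1013467-1014540), a ubiquitin-like protein that is joined to other proteins, was at 85.9 and 77.8 RPKM with DMSO and 87.2 and 91.3 RPKM with JQ1 in SU-DHL-5, and at 43.5 and 34.4 against 42.4 and 44.1 RPKM in Toledo. Its log2 ratios of 0.12 and 0.15 were small, and the libraries overlapped in Toledo. USP18, the protease that removes ISG15 and also restrains the type I receptor, was at 7.99 and 7.75 RPKM with DMSO and 1.35 and 1.39 RPKM with JQ1 in SU-DHL-5. It fell there with a log2 ratio of −2.44 (543 and 90 reads, interval from −2.86 to −2.20), while in Toledo it was under the minimum with 19 and 2 reads. HERC5, the main ligase for ISG15, had a log2 ratio of −0.04 in Toledo, with an interval from −0.27 to 0.20, and 1 read in SU-DHL-5. HERC6, its relative, fell in SU-DHL-5 (log2 ratio of −1.38).

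PARP14 and DTX3L, which act in ADP-ribosylation, fell in both lines. DTX3L, a ubiquitin ligase that pairs with PARP9, had a log2 ratio of −1.30 in SU-DHL-5 and one of −2.62 in Toledo, where it went from 3.54 and 4.42 RPKM to 0.512 and 0.612 RPKM. PARP14 went from 2.05 and 2.74 RPKM to 0.987 and 0.819 RPKM in Toledo, and its log2 ratio was −1.31 there and −1.06 in SU-DHL-5. The call of PARP14 rested on both libraries together, since its log2 ratio was −0.94 with library 2 alone in SU-DHL-5 and −0.98 with library 1 alone in Toledo. PARP9 had a log2 ratio of −0.78 in SU-DHL-5 and was under the minimum in Toledo. PARP9 and DTX3L lie head to head and overlap by 339 bases in the table, and whether reads were counted by strand is not given in the sources used here.

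TRIM22 (chr11:5689587-5710863), a ubiquitin ligase with antiviral activity, was among the abundant members that fell. In SU-DHL-5, it went from 24.5 and 26.0 RPKM to 6.20 and 6.99 RPKM. In Toledo, TRIM22 went from 15.6 and 19.005 RPKM to 3.04 and 2.87 RPKM. The log2 ratios of this gene were −1.92 (interval from −2.07 to −1.82) and −2.51 (interval from −2.73 to −2.37). The difference between the lines was not tested. ISG20, an exonuclease, fell in SU-DHL-5 from 7.91 and 9.53 RPKM to 2.60 and 2.49 RPKM, a log2 ratio of −1.74. SAMD9, SAMD9L and SP110 passed in both lines and were not called, with log2 ratios from −0.84 for SAMD9L in SU-DHL-5 to −0.10 for SP110 in SU-DHL-5.

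The last group holds genes named for their induction by interferon. IFI35 fell in Toledo from 4.57 and 3.40 RPKM to 1.52 and 1.34 RPKM, a log2 ratio of −1.42, and had a log2 ratio of −0.72 in SU-DHL-5. IFI44 fell in SU-DHL-5 (log2 ratio of −1.11 over 111 and 46 reads), but with library 1 alone its log2 ratio was −0.83. IFI6, a mitochondrial protein, had log2 ratios of −0.15 and 0.10. In all, 7 members were under the minimum in both lines, namely IFI27, IFI44L, OAS3, RSAD2, XAF1, LGALS3BP and GBP1. Another 12 were under it in Toledo only (ISG20, IFI44, IFIT1, IFIT2, IFIT3, OAS1, OASL, DHX58, HERC6, USP18, PARP9 and GBP2) and 4 in SU-DHL-5 only (IFIT5, IFITM3, MX2 and HERC5).

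The lines were also compared without JQ1, as Toledo DMSO against SU-DHL-5 DMSO. This comparison shares its samples with the 2 comparisons above and is not independent of them. Of 36 members that passed, 9 were higher in Toledo (25.0%, compared with 16.6% of 10388 genes) and 17 were lower (47.2%, compared with 14.0%). The median log2 ratio of these members was −0.68, and that of all genes tested was 0.01. With library 1 alone it was −0.83 and with library 2 alone −0.45, so the size of this median depends on the library. The share that was higher is nearer to the background than the share that was lower.

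The members higher in Toledo were IFITM1, IFITM2, IFITM3, MX1, MX2, IFI16, IFIT5, IRF7 and HERC5. MX2, a nuclear-envelope GTPase, was at 0.0723 and 0.0836 RPKM in SU-DHL-5 and at 27.3 and 32.0 RPKM in Toledo, a log2 ratio of 7.38. IFITM2, IFITM3 and IFITM1 had log2 ratios of 5.51, 5.36 and 3.02, from the DMSO values given with each gene. HERC5 was at 0.0181 and 0 RPKM in SU-DHL-5, with 1 read, and at 2.20 and 3.17 RPKM in Toledo, with 318 reads, a log2 ratio of 4.67. All Toledo libraries of these 5 genes lay above those of SU-DHL-5, where MX2, IFITM3 and HERC5 had means under 0.5 RPKM and IFITM1 and IFITM2 did not.

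The members lower in Toledo were ISG15, ISG20, IFI6, IFI35, IFI44, IFIT2, IFIT3, OAS1, OASL, IRF9, DHX58, HERC6, USP18, PARP9, PARP14, DTX3L and BST2. OASL was at 2.75 and 2.82 RPKM in SU-DHL-5 and at 0.0543 and 0 RPKM in Toledo, a log2 ratio of −4.51 over 190 and 2 reads. USP18 was at 0.187 and 0.350 RPKM in Toledo and ISG20 at 0.532 and 0.449 RPKM, with log2 ratios of −4.43 and −3.90. The log2 ratios of IFI44, IFIT2 and IFIT3 were −3.94, −3.91 and −3.83. IFI44 was at 1.70 and 2.22 RPKM in SU-DHL-5 and 0.0328 and 0.0357 RPKM in Toledo, and IFIT2 was at 1.97 and 2.36 RPKM in SU-DHL-5 and 0.0486 and 0.0529 RPKM in Toledo. IFIT3 was at 0.147 and 0.183 RPKM in Toledo. ISG15 was lower in Toledo by a log2 ratio of −1.07, which was −0.98 with library 1 alone. All libraries of SU-DHL-5 lay above those of Toledo for these 17 genes. Of them, ISG20, IFI44, IFIT2, IFIT3, OASL, DHX58, HERC6 and USP18 had means under 0.5 RPKM in Toledo and passed the minimum through SU-DHL-5.

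**Figure D4:**
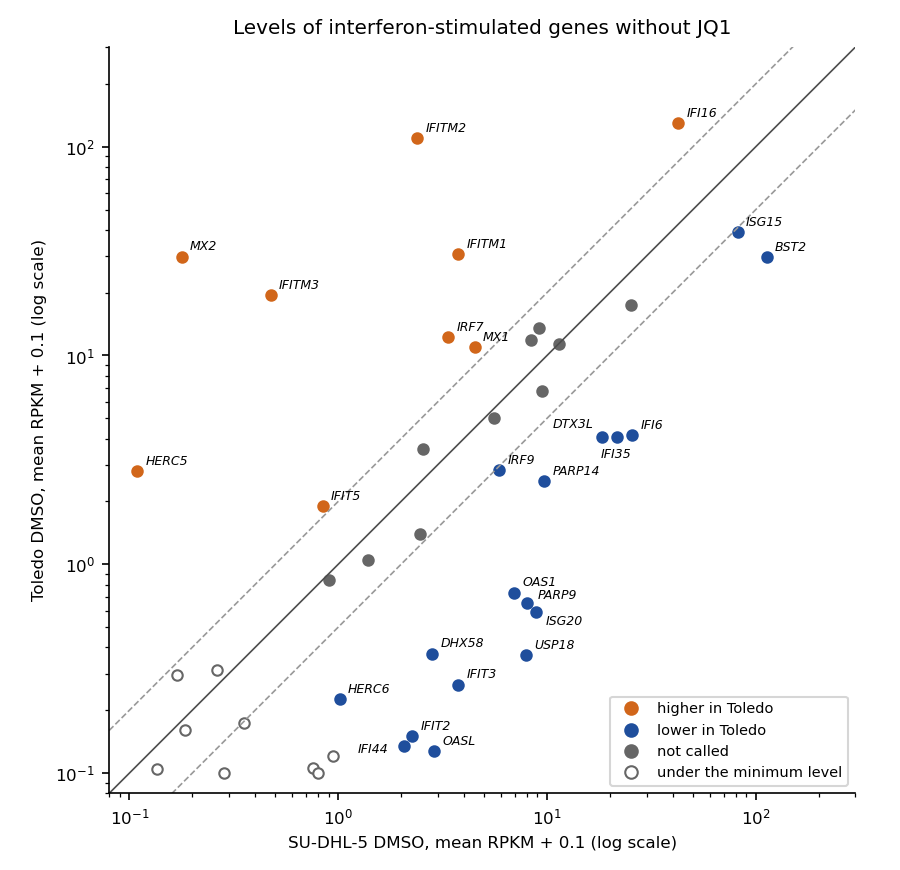
Mean RPKM of the 45 members in DMSO-treated Toledo against DMSO-treated SU-DHL-5, with 0.1 RPKM added, both axes on a log scale. The solid line marks equal levels and the dashed lines 2-fold; MX2, IFITM2, IFITM3 and HERC5 lie far above the line, and the 17 genes called lower lie below it past the 2-fold limit, together with 5 genes under the minimum level.

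Further genes of the pathway were taken from lists. None of the 22 interferon ligand genes passed the minimum in any comparison: 21 were at 0 in all 8 libraries, and IFNG reached 0.0467 RPKM in 1 library of Toledo DMSO. Of 15 receptor and signaling genes, 14 passed and none was called with JQ1 in either line, where 1.84% and 1.95% of all genes rose and 6.39% and 8.29% fell. These 14 genes had a median log2 ratio of 0.16 in SU-DHL-5 and of 0.26 in Toledo. Without JQ1, IFNGR1, IFNGR2, IFNLR1, IL10RB and PTPN2 were higher in Toledo (log2 ratios of 1.92, 1.16, 1.32, 1.52 and 1.10), compared with 16.6% of all genes. Another 2 were lower, compared with 14.0% of all genes, among them STAT3 with a log2 ratio of −2.13.

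Of the 14 sensing adaptors and kinases, MYD88, the adaptor of most Toll-like receptors, fell in SU-DHL-5 (log2 ratio of −1.14) among 9 genes that passed, compared with 6.39% of all genes. In Toledo, TMEM173 (STING), IKBKE and TLR7 fell among 11 that passed, with log2 ratios of −1.17, −1.17 and −1.14, compared with 8.29% of all genes. Of the 6 other IRF genes, 4 passed in SU-DHL-5 and 5 in Toledo, where 6.39% and 8.29% of all genes fell. IRF5 fell in both lines (log2 ratios of −2.39 and −1.47), compared with 3.03% of all genes. IRF8, a factor of germinal-center B cells, fell in Toledo with a log2 ratio of −3.09 and had one of 0.09 in SU-DHL-5. Without JQ1, 5 of the 6 passed, and 16.6% of all genes were higher in Toledo and 14.0% lower. IRF4, a factor of activated B cells and plasma cells, was higher in Toledo with a log2 ratio of 8.78. IRF8 and IRF3 were lower there, with log2 ratios of −3.52 and −1.37. Of the 12 sensing genes that passed without JQ1, MB21D1 (cGAS), TMEM173 and TLR7 were higher in Toledo (log2 ratios of 4.99, 4.28 and 3.57, with 16.6% of all genes higher), and AIM2 and TLR9 were lower (log2 ratios of −6.58 and −1.73, with 14.0% of all genes lower).

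Further ISGs, a list of 49 genes also chosen with earlier results of these data known, were counted by the same rule. In SU-DHL-5, 11 of the 40 that passed fell (6.39% of all genes), and in Toledo, 10 of 34 (8.29% of all genes). None rose in SU-DHL-5 (1.84% of all genes) or in Toledo (1.95%). RTP4, UBA7, APOL1, DDX60, APOL6 and APOL3 had the lowest log2 ratios of those that fell in SU-DHL-5, at −3.43, −2.66, −2.09, −1.82, −1.76 and −1.49. UBA7, the enzyme that activates ISG15 for joining, was at 2.51 and 2.15 RPKM with DMSO against 0.285 and 0.282 RPKM with JQ1 in SU-DHL-5. UBA7 was at 2.39 and 2.14 RPKM against 0.289 and 0.292 RPKM in Toledo. In Toledo, RTP4, UBA7, IFI27L2, APOL6, APOL3 and LGALS9 had the lowest log2 ratios, at −2.82, −2.60, −2.35, −2.17, −2.12 and −1.89. Without JQ1, 1 of 40 was higher in Toledo (LGALS9, with a log2 ratio of 6.92), compared with 16.6% of all genes. Another 15 were lower, compared with 14.0% of all genes, among them IFI30, EPSTI1, PLSCR1, DDX60, CMPK2 and TMEM140 (log2 ratios of −6.41, −6.21, −5.84, −3.95, −3.87 and −2.47).

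Markers of cell types were read to check the labels. All 6 B-cell markers were expressed in every library, and the most abundant was CD79A, at up to 643 RPKM. MS4A1 and CD22 fell with JQ1 in both lines, and their log2 ratios were −1.99 and −1.47 in SU-DHL-5. The same genes in Toledo had log2 ratios of −1.47 and −1.11. The summed RPKM of the 6 markers was 999 and 884 with DMSO and 637 and 629 with JQ1 in SU-DHL-5, and 947 and 885 with DMSO and 609 and 627 with JQ1 in Toledo. MS4A1 and CD22 thus fell beside the ISGs, and their part in the result was not tested. In bulk RNA, fewer cells of a type and less RNA per cell cannot be told apart.

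Markers of other cells were low. The 5 T-cell markers summed to 1.24 and 1.00 RPKM in SU-DHL-5 DMSO, to 0.120 and 0.0452 RPKM in SU-DHL-5 JQ1 and to at most 0.154 RPKM in Toledo, with CD3E the most abundant and CD2 at 0. The 4 monocyte and macrophage markers summed to 1.25 and 1.29 RPKM in SU-DHL-5 DMSO, to 0.339 and 0.192 RPKM in SU-DHL-5 JQ1 and to at most 0.298 RPKM in Toledo, with LYZ the most abundant and CD163 at 0. The 4 fibroblast and epithelial markers summed to 2.29 and 2.72 RPKM in Toledo DMSO, to 0.251 and 0.397 RPKM in Toledo JQ1 and to at most 0.0537 RPKM in SU-DHL-5, nearly all of it from COL1A1, with EPCAM and KRT18 at 0. CD3E and LYZ fell in SU-DHL-5 and COL1A1 fell in Toledo, and their part in the result was not tested. The 3 NK-cell markers summed to at most 0.303 RPKM and the 3 plasmacytoid dendritic cell markers found in the table to at most 0.512 RPKM in any library.

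As genes known to respond to JQ1, HEXIM1 and MYC were read once. HEXIM1, an inhibitor of the elongation factor P-TEFb, rose in both lines (log2 ratios of 2.43 and 2.57). MYC was not called in either line, with log2 ratios of −0.29 and 0.03. The study, by contrast, reports lower MYC mRNA by quantitative PCR with JQ1 at 1 µM in both lines. The reason for this difference was not tested.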

How the data were processed

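The authors prepared stranded mRNA libraries, sequenced them with paired reads and deposited RPKM per gene and per transcript from trimmed reads. The submitters' processing notes name CASAVA 2.0 and the builds GRCh38 and hg38. The mapper, the annotation and the treatment of multiply mapped reads are not given in the sources used here. Positions overlapped those of RefSeq on GRCh38.p14 for 99.8% of 32699 shared symbols.

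The 2 libraries of a sample were averaged. Ratios are log2((a + 0.1)/(b + 0.1)) of mean RPKM, with a minimum mean of 0.5 RPKM over the 4 libraries compared. The limit of 2-fold mirrors the ratio of 0.5 used by the study. Mapped reads per library were taken as the total that most often made the values of short genes whole (tolerance 0.01 reads), and gene lengths as the smallest length from 100 to 40000 bases that made all values whole. This gave reads for 14942 of 14944 genes with a value. Intervals were computed where a gene had at least 20 reads over the samples compared. The steps were tested on simulated data, in which reads varied by counting error only and the genes given a change were not low in reads. That test thus does not cover the larger spread between the real libraries of a sample. Nor does it cover changes of genes with few reads. No count model was fitted.

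Named genes were STAT2, IRF1, IRF7, IRF9, DDX58, IFIH1, ISG15 and the IFITM genes, the members called (with library values for up to 10 per comparison by size), called genes of the other lists (up to 6 per list), HEXIM1 and MYC, and members under the minimum. The values of IFI16 and of other members beyond this rule were chosen after they were seen. The members and lists were chosen with earlier results of these data known. Alternatives varied the pseudocount, the minimum, the fold, the libraries, the scaling and the table. The software was matplotlib 3.10.9, scipy 1.17.1, pandas 2.3.3 and numpy 2.4.6 under Python 3.11.15.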

Additional observations from a re-analysis of the deposited data

Results flagged for a closer look

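The libraries of 4 members moved in opposite directions with JQ1, below both DMSO libraries in SU-DHL-5 but above them in Toledo. They were 4 of the 38 members that passed in either line (10.5%), and 6.81% of all genes that passed in either line moved in opposite directions, so the count is near that of all genes. The difference between the lines was not tested for any of them. IFI16, a sensor of DNA and the most abundant member of Toledo, was at 42.5 and 42.0 RPKM with DMSO and 25.1 and 25.8 RPKM with JQ1 in SU-DHL-5, and at 119.6 and 138 RPKM with DMSO and 139 and 145 RPKM with JQ1 in Toledo. Its log2 ratio was 0.14 in Toledo and −0.73 in SU-DHL-5, a difference of 0.87, and the intervals over the reads were from 0.11 to 0.18 and from −0.80 to −0.66. In Toledo, the JQ1 library nearest to DMSO was separated from it by less than the DMSO libraries were from each other.

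The other 3 were under the minimum level in Toledo and rest on few reads there. IFIT2 had a log2 ratio of −0.56 in SU-DHL-5 and one of 1.05 in Toledo, a difference of 1.61, with 6 reads in Toledo DMSO and 24 in Toledo JQ1. DHX58 had log2 ratios of −0.67 and 0.55, a difference of 1.22, with 24 and 38 reads in Toledo and an interval from −0.05 to 1.53 that included 0. OASL had log2 ratios of −1.45 and 0.68, a difference of 2.13, with 2 and 7 reads in Toledo.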

How the results depend on the processing

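No paired analysis was possible because each comparison held 1 sample per group. Pairing DMSO and JQ1 over the 2 lines would take the lines as replicates of each other, and this was not run. The counts of members that fell, 16 in SU-DHL-5 and 11 in Toledo, stayed within 1.5 times under the alternatives run, except that 9 members fell in SU-DHL-5 with a pseudocount of 1 RPKM, all of them among the 16, while the share of all genes that fell went from 6.39% to 3.59%. This pseudocount compresses the ratios of low genes by construction, and IFI44, IFIH1, OAS2, OASL, HERC6, PARP14 and GBP2 were not called with it. In Toledo, OAS2 and PARP14 were not called with it, so that 5 members in place of 7 fell in both lines. With no minimum, 2 members rose in Toledo in place of 1, the second being IFIT2. The counts without JQ1 stayed within 1.5 times. With library 1 alone, 14 of the 16 calls in SU-DHL-5 and 10 of the 11 in Toledo were kept, and with library 2 alone 15 and 11.

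The median log2 ratio of members was −0.86 in SU-DHL-5 and became −0.68 with a pseudocount of 1 RPKM, −0.94 with 0.01 RPKM and −0.78 with a minimum of 1 RPKM. In Toledo, the reported value of −0.56 became −0.41 with a pseudocount of 1 RPKM, −0.61 with 0.01 RPKM, −0.50 with no minimum, −0.47 with a minimum of 1 RPKM, −0.66 with library 1 alone, −0.72 with library 2 alone, −0.51 after scaling of JQ1 values and −0.86 from summed transcripts. The cause of these shifts was not tested, and the number of members that passed also changed, from 23 to 43 in Toledo. Without JQ1, the median of −0.68 was −0.83 with library 1 alone and −0.45 with library 2 alone. All medians stayed below 0. No called gene changed sign in 420 values of single genes under alternatives, of which 75 moved by more than the spread between libraries. Depth limits the members with few reads, such as IFITM2 in SU-DHL-5 and those under the minimum.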

Other observations

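The levels of the members, summed as RPKM, were 466 and 447 in SU-DHL-5 DMSO and 322 and 332 in SU-DHL-5 JQ1, and 499 and 513 in Toledo DMSO and 335 and 349 in Toledo JQ1. A few abundant genes make up most of each sum, and they differed between lines. BST2 and ISG15 led in SU-DHL-5, and IFI16 and IFITM2 led in Toledo with DMSO, at 129 RPKM on average for IFI16. With JQ1, ISG15 took the first place in SU-DHL-5, at 89.3 RPKM, and IFI16 kept it in Toledo, at 142 RPKM. The number of members at or above 1 RPKM was 30 with DMSO and 22 with JQ1 in SU-DHL-5. In Toledo it was 24 with DMSO and 21 with JQ1.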
